A study of Drosophila melanogaster with 12 samples.

Results

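The pentose phosphate pathway was followed through the transcripts of its 7 enzymes in *Drosophila melanogaster* larvae: *Zw*, *Pgd*, *CG17333*, *Rpe*, *Rpi*, *Taldo* and *CG8036*. They were chosen by gene symbol as the members of the oxidative arm (3 genes) and of the non-oxidative arm (4 genes), and all 7 were found among the 17185 gene identifiers counted in every library. RNA-seq libraries were made from total RNA of whole larvae kept at 25 °C for 60 hours after egg collection, with 4 genotypes and 3 libraries each. All 4 genotypes carried w[1118]. The *Gpdh1* heterozygotes were Gpdh1[12]/+ and served as the matched control of the *Gpdh1* mutants, Gpdh1[12]/[14]. The double heterozygotes were Gpdh1[12]/+; Ldh[16]/+ and served as the control of the *Gpdh1; Ldh* double mutants, Gpdh1[12]/[14]; Ldh[16]/[17]. Every control therefore already carried 1 mutant copy of *Gpdh1*, and *Ldh* single mutants were not analysed here. Both mutants were trans-heterozygous, so that the copies on the 2 homologous chromosomes came from different alleles. The labels call the animals mid-L3 larvae, whereas the study's account of this experiment calls them mid-L2, and the *Gpdh1* alleles named 12 and 14 in the labels have other names there. Each library was a pool of larvae.

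The pathway branches from glycolysis at glucose-6-phosphate. The oxidative arm uses glucose-6-phosphate dehydrogenase, 6-phosphogluconolactonase and 6-phosphogluconate dehydrogenase to make ribulose-5-phosphate, and both dehydrogenases reduce NADP+ to NADPH, which larvae use for fatty acid synthesis and for defence against oxidants. The non-oxidative arm interconverts pentose phosphates with glycolytic sugar phosphates in reversible steps and supplies ribose-5-phosphate for nucleotides. *Gpdh1* encodes the glycerol-3-phosphate dehydrogenase and *Ldh* the lactate dehydrogenase that reoxidise NADH from glycolysis in growing larvae, and the comparisons asked what the loss of one or both of these enzymes did to larval gene expression.

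Each library held between 22339930 and 26605495 reads assigned to genes. Levels are given as CPM, the counts of a gene scaled to a common library size with edgeR's TMM factors, and as CPM per kilobase of exon where genes are compared with each other. The labels were checked with the mutated genes: *Gpdh1* averaged 482 CPM in *Gpdh1* heterozygotes and 267 CPM in *Gpdh1* mutants, then 483 CPM in double heterozygotes and 61.6 CPM in double mutants, and *Ldh* averaged 508, 398, 447 and 3.95 CPM in the same order. Both mutant groups carry the label Gpdh1[12]/[14], but *Gpdh1* was at 231 to 287 CPM in the *Gpdh1* mutant libraries and at 61.2 to 62.1 CPM in the double mutant libraries, a log2 difference of −2.13 (SE 0.110, adjusted p = 4.48e-07, edgeR). Both were below their controls, at 412 to 518 and 446 to 505 CPM, and why the same allele label came with such different levels was not tested. The libraries were not equally variable. The common biological coefficient of variation was 0.142 in the heterozygotes and 0.0998 in the mutants of the *Gpdh1* cross, and 0.212 and 0.0375 in those of the double cross. Double heterozygote library 2 stood apart from libraries 1 and 3 of its group, with a chi-square per degree of freedom of 85.5 and 118 against them, compared with 23.9 between those 2. The double mutant libraries were the closest to each other (2.42 to 12.0), but all pairs differed by more than sampling noise. Because the larvae were whole, fewer cells of a type and less RNA per cell cannot be told apart in any of the values that follow. All groups were collected at the same age. The study reports a developmental arrest of the double mutants, and little effect on larval growth when either enzyme alone is lost. A difference in stage or growth between mutants and controls was not measured here and cannot be told apart from other effects of genotype.

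Read per kilobase, the non-oxidative enzymes made up most of the pathway's transcripts. *Taldo* (transaldolase; chromosome 2R, 23940410 to 23942114 in the Ensembl BDGP6.54 annotation) had a median of 417 CPM per kb over the 12 libraries, with a range of 348 to 538. *CG8036* (transketolase; 3R, 8667868 to 8673702) followed at 299 (254 to 387) and *Pgd* (6-phosphogluconate dehydrogenase; X, 2145136 to 2148566) at 121 (85.6 to 134) CPM per kb. The ranges of *Taldo* and *CG8036* overlapped, although within each library *CG8036* was at 0.608 to 0.850 times the level of *Taldo*, and the range of *Pgd* lay below both. *Rpi* (ribose-5-phosphate isomerase; 2R, 23355183 to 23356441) stood at 67.2 (49.7 to 81.3), *CG17333* (6-phosphogluconolactonase, named Pgls in the annotation; X, 10847438 to 10848534) at 52.5 (40.0 to 67.4) and *Rpe* (ribulose-phosphate 3-epimerase; 2R, 7564434 to 7565751) at 50.2 (40.4 to 62.9) CPM per kb, with overlapping ranges. *Zw*, the gene of glucose-6-phosphate dehydrogenase, which commits glucose-6-phosphate to the pathway (X, 19667252 to 19672353), had the lowest level of the 7, 23.3 CPM per kb (18.6 to 34.2). The levels of single genes varied little over the 12 libraries, from 1.52-fold between the lowest and the highest for *CG8036* to 1.84-fold for *Zw*. In the annotation, exons of *Zw* share 369 of their 2512 bases with an RNA on the opposite strand, asRNA:CR44512, whose group means were 1.22 to 2.30 CPM. Those of *Pgd* share 104 bases with *bcn92* (30.8 to 41.5 CPM) and those of *Rpi* 70 bases with *CG3500* (7.95 to 8.72 CPM), and *Rpi* also shares 139 bases with a pseudogene on its own strand, CR30409, that has no row in the count tables. Whether counting used strand is not given in the sources used here.

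**Figure D1:**
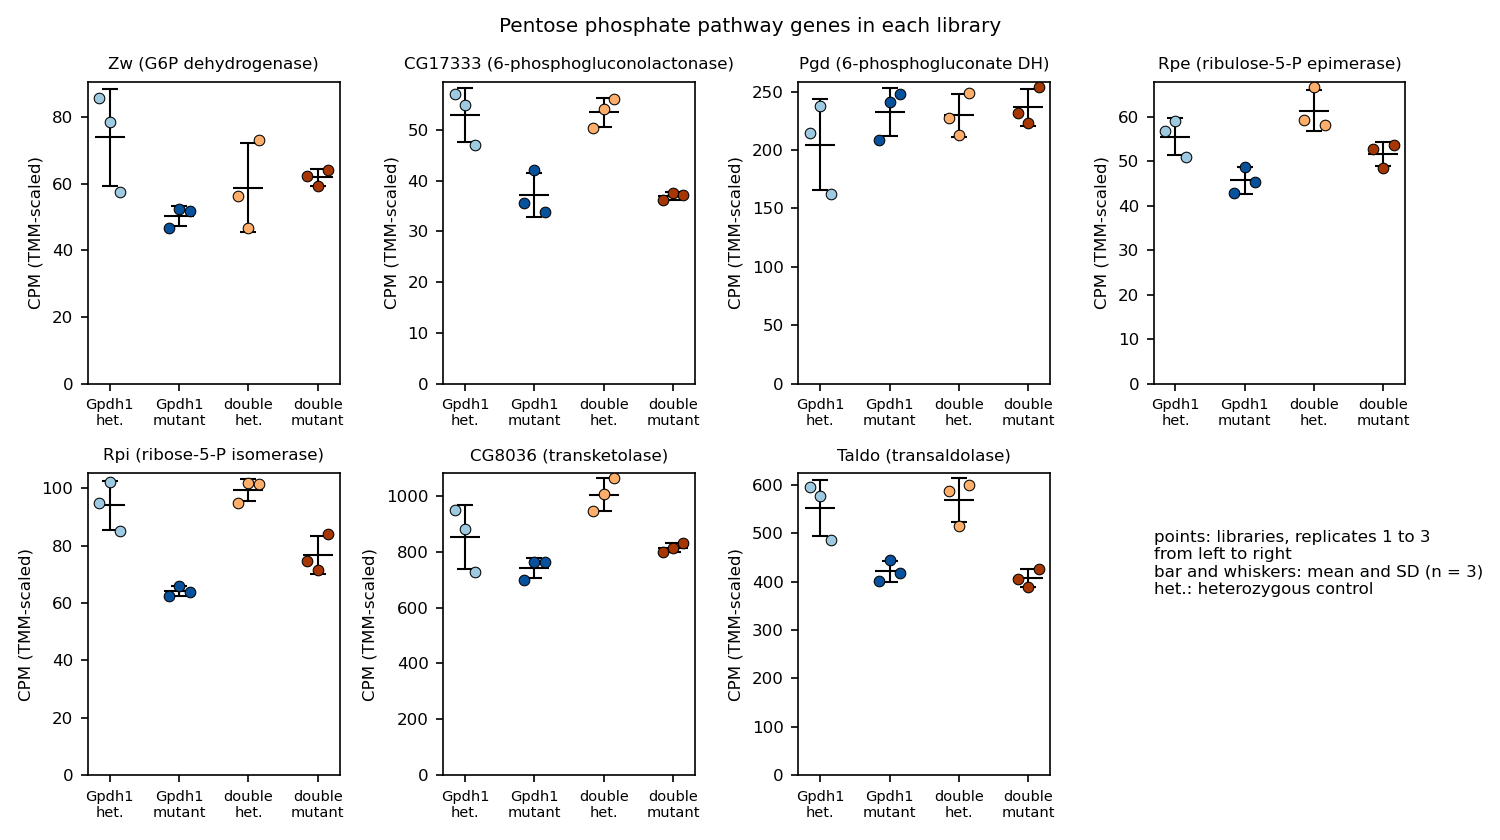
TMM-scaled CPM of each pathway gene in each of the 12 libraries (1 panel per gene, points are libraries, bars are group means with the SD of 3 libraries, all axes starting at 0). *CG17333*, *Rpe*, *Rpi* and *Taldo* lie lower in all mutant libraries than in the libraries of the matched control in both crosses, while the groups overlap for *Pgd*.

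Most of the pathway was lower in both mutants. In *Gpdh1* mutants, 5 of the 7 genes were lower than in heterozygotes (*Zw*, *CG17333*, *Rpi*, *Rpe* and *Taldo*) and none was higher. In double mutants, 5 were lower than in double heterozygotes (*CG17333*, *Rpi*, *Rpe*, *Taldo* and *CG8036*) and none was higher. *CG17333*, *Rpi*, *Rpe* and *Taldo* passed the test in both comparisons, and *Pgd* passed it in neither. The test was edgeR's quasi-likelihood F test with Benjamini-Hochberg adjustment over all genes and a threshold of 0.05, and all adjusted p values below come from it unless DESeq2 is named. Over all genes tested, 20.2% were lower and 17.9% higher in *Gpdh1* mutants, and 25.9% were lower and 25.3% higher in double mutants. The 5 genes in each comparison were also those with every mutant library below every control library, a pattern held by 27.7% of all genes tested in *Gpdh1* mutants and 30.9% in double mutants. The median log2 fold change of the 7 genes was −0.39 in *Gpdh1* mutants against 0.01 over all genes, and −0.31 in double mutants against −0.03. None of the changes reached 2-fold. For the count of 0 higher genes, edgeR also gave 0 at an unadjusted p under 0.05 in both comparisons, and DESeq2 gave 0. The count of lower genes in *Gpdh1* mutants was 3 without heterozygote library 2, and 2 without mutant library 1 or mutant library 3. Over all genes tested, the share of lower genes also fell in these fits, to 16.8%, 14.3% and 13.9%. An alternative added after the data were seen summed the close double mutant libraries into 1. It left that group without a spread of its own, so only effect sizes are given. The log2 fold change of *CG17333* in double mutants was then −0.54.

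**Figure D2:**
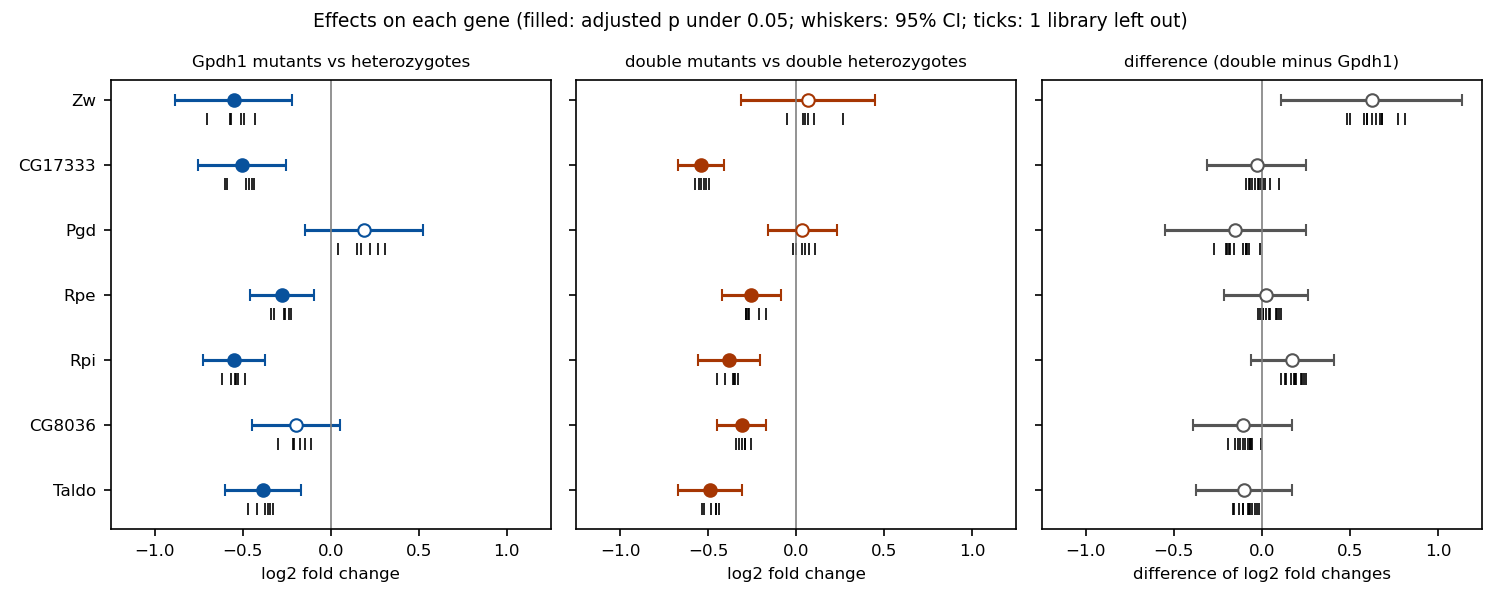
Log2 fold change of each pathway gene in *Gpdh1* mutants (left), in double mutants (middle), and the difference between these (right), with 95% confidence intervals as whiskers, filled points for adjusted p under 0.05 and ticks for the values with 1 library left out. The 5 filled points on the left lie between −0.28 and −0.55 and the 5 in the middle between −0.26 and −0.54, and none on the right is filled.

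In the oxidative arm, *Zw* was lower in *Gpdh1* mutants and did not pass the test in double mutants. It stood at 85.8, 78.4 and 57.7 CPM in the *Gpdh1* heterozygote libraries and at 46.8, 52.3 and 51.8 CPM in the *Gpdh1* mutant libraries. All 3 mutant libraries were below the lowest control, although heterozygote library 3 lay closer to the mutants than to the other controls. The log2 fold change was −0.55 (SE 0.142, adjusted p = 0.0207), that is 0.682 times the control level. The test was no longer passed without *Gpdh1* heterozygote library 2 (−0.51, adjusted p = 0.0573), *Gpdh1* mutant library 1 (−0.49, adjusted p = 0.0721) or *Gpdh1* mutant library 3 (−0.57, adjusted p = 0.0598). Across the double cross, *Zw* was at 56.5, 46.7 and 73.2 CPM in controls and in mutants at 62.3, 59.2 and 64.3 CPM. These groups overlapped, with the double mutants inside the wide range of their control. The log2 fold change was 0.07 (SE 0.159, 95% confidence interval −0.31 to 0.45, adjusted p = 0.743) and its sign turned without double heterozygote library 2 (−0.05), while without library 3 of that group it was 0.27.

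*CG17333*, whose enzyme opens the lactone made by glucose-6-phosphate dehydrogenase, was lower in both mutants. It was at 57.1, 54.8 and 46.9 CPM in *Gpdh1* heterozygotes and at 35.5, 42.0 and 33.9 CPM in *Gpdh1* mutants. The double heterozygotes had 50.4, 54.0 and 56.0 CPM and the double mutants 36.1, 37.6 and 37.1 CPM. No mutant library reached the lowest of its control libraries in either cross, and the double mutant libraries were nearly equal. The log2 fold changes were −0.51 (SE 0.106, adjusted p = 0.00979) and −0.54 (SE 0.0548, adjusted p = 0.000391), or 0.704 and 0.688 times the control. Both calls were kept with any 1 library left out, and the fold changes differed by −0.03 (adjusted p = 0.888).

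*Pgd*, the gene of the second NADPH-producing enzyme, did not pass the test in either mutant. Its levels were 215, 237 and 162 CPM in *Gpdh1* heterozygotes and 209, 241 and 248 CPM in *Gpdh1* mutants. In the other cross they were 227, 213 and 249 CPM in double heterozygotes and 232, 223 and 254 CPM in double mutants. The groups overlapped in both crosses, and heterozygote library 3 of the *Gpdh1* cross was the lowest of the 12. The log2 fold change was 0.19 in *Gpdh1* mutants (95% confidence interval −0.15 to 0.52, adjusted p = 0.329) and 0.03 in double mutants (−0.16 to 0.23, adjusted p = 0.746). Both intervals run from a decrease to an increase, so that a modest change in either direction was not excluded.

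In the non-oxidative arm, both enzymes that act on ribulose-5-phosphate were lower in both mutants. *Rpi*, which makes ribose-5-phosphate, was at 94.999, 102.3 and 85.3 CPM in *Gpdh1* heterozygotes and at 62.6, 66.0 and 63.7 CPM in *Gpdh1* mutants. In double heterozygotes it was at 94.9, 101.7 and 101.7 CPM, and in double mutants at 74.7, 71.5 and 84.0 CPM. The groups were well apart in both crosses. Its fold change on the log2 scale was −0.55 in *Gpdh1* mutants (SE 0.0753, adjusted p = 0.00194) and −0.38 in double mutants (SE 0.0726, adjusted p = 0.00536), and both calls were kept with any 1 library left out.

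*Rpe*, whose product makes xylulose-5-phosphate, had smaller fold changes than *Rpi* in both crosses. Its levels were 56.7, 58.9 and 50.9 CPM in *Gpdh1* heterozygotes and 42.8, 48.7 and 45.4 CPM in *Gpdh1* mutants. In the other cross they were 59.2, 66.7 and 58.1 CPM in double heterozygotes and 52.7, 48.4 and 53.7 CPM in double mutants. The groups did not overlap, but the gaps between them were small. The log2 fold change was −0.28 in *Gpdh1* mutants (SE 0.0766, adjusted p = 0.0270) and −0.26 in double mutants (SE 0.0695, adjusted p = 0.0216). In *Gpdh1* mutants the call was lost without heterozygote library 1 (adjusted p = 0.0647), heterozygote library 2 (0.0730), mutant library 1 (0.0946) or mutant library 3 (0.0860). In double mutants it was lost without mutant library 1 (adjusted p = 0.0614) or mutant library 2 (0.0802), and its log2 fold change over the libraries left out ran from −0.29 to −0.17.

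*Taldo* was the most abundant transcript of the 7 per kilobase and was lower in both mutants. It stood at 595, 578 and 486 CPM in *Gpdh1* heterozygotes and at 402, 445 and 418 CPM in *Gpdh1* mutants. The double heterozygotes had 589, 516 and 600.0 CPM and the double mutants 406, 389 and 426 CPM. The mutant libraries of both crosses lay in 1 narrow band below all controls. The log2 fold changes were −0.39 (SE 0.0912, adjusted p = 0.0151) and −0.49 (SE 0.0747, adjusted p = 0.00214), or 0.766 and 0.712 times the control. In *Gpdh1* mutants the call was lost without mutant library 1 (−0.34, adjusted p = 0.0551) or mutant library 3 (−0.37, adjusted p = 0.0565).

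*CG8036*, whose enzyme hands on 2-carbon units and so shares substrates with transaldolase, was lower in double mutants. It was at 945, 1008 and 1063 CPM in double heterozygotes and at 800.5, 814 and 832 CPM in double mutants, with a clear gap between the groups. This was a log2 fold change of −0.31 (SE 0.0576, adjusted p = 0.00490). In the *Gpdh1* cross the levels were 949, 884 and 728 CPM in heterozygotes and 699, 765 and 763 CPM in mutants, and heterozygote library 3 lay among the mutants. The log2 fold change there was −0.20 (95% confidence interval −0.45 to 0.05, adjusted p = 0.181), and without heterozygote library 3 it was −0.30 and passed the test (adjusted p = 0.0274).

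The difference between the effects in both crosses was tested directly in 1 fit of all 12 libraries. None of the 7 genes passed: edgeR gave 0 higher and 0 lower, against 12.0% and 13.5% of all genes tested. For lower genes the count was also 0 at an unadjusted p under 0.05 and in DESeq2. *Zw* came closest, with a log2 fold change that was 0.62 higher in double mutants than in *Gpdh1* mutants (SE 0.232, 95% confidence interval 0.11 to 1.14, unadjusted p = 0.0216, adjusted p = 0.0721). It was the 1 gene with an unadjusted p under 0.05, and it passed in DESeq2 (0.65, adjusted p = 0.0336) and without *Gpdh1* heterozygote library 3 (0.77, adjusted p = 0.0215) or double heterozygote library 3 (0.81, adjusted p = 0.0156). The differences of the other 6 genes lay between −0.15 (*Pgd*) and 0.17 (*Rpi*). So *CG8036*, which passed in 1 cross and not in the other, was not shown to differ between them (−0.11, adjusted p = 0.569).

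The 2 control groups were compared because they differ by 1 mutant copy of *Ldh* and by cross. None of the 7 genes passed, against 14.1% higher and 12.3% lower over all genes. *CG8036* had an unadjusted p of 0.0245 (0.23 higher in double heterozygotes), the 1 gene under 0.05 by edgeR. DESeq2 also called 0 genes in either direction. The value of *Zw* was −0.33, lower in double heterozygotes (adjusted p = 0.158), and passed without *Gpdh1* heterozygote library 3 (−0.48, adjusted p = 0.0431) or double heterozygote library 3 (−0.52, adjusted p = 0.0282), and *CG8036* passed without *Gpdh1* heterozygote library 1 (0.32, adjusted p = 0.0279). Between the 2 mutant groups, 1 gene was higher in double mutants and 0 lower, against 18.9% and 20.0% of all genes. For lower genes, edgeR's unadjusted p and DESeq2 also gave 0. That gene was *Rpi* (0.25, SE 0.0759, adjusted p = 0.0238), and its call was lost without *Gpdh1* mutant library 1 (0.23, adjusted p = 0.0728), *Gpdh1* mutant library 3 (0.25, adjusted p = 0.0626) or double mutant library 3 (0.18, adjusted p = 0.0923). The genotype and the cross cannot be told apart in either of these comparisons.

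**Figure D3:**
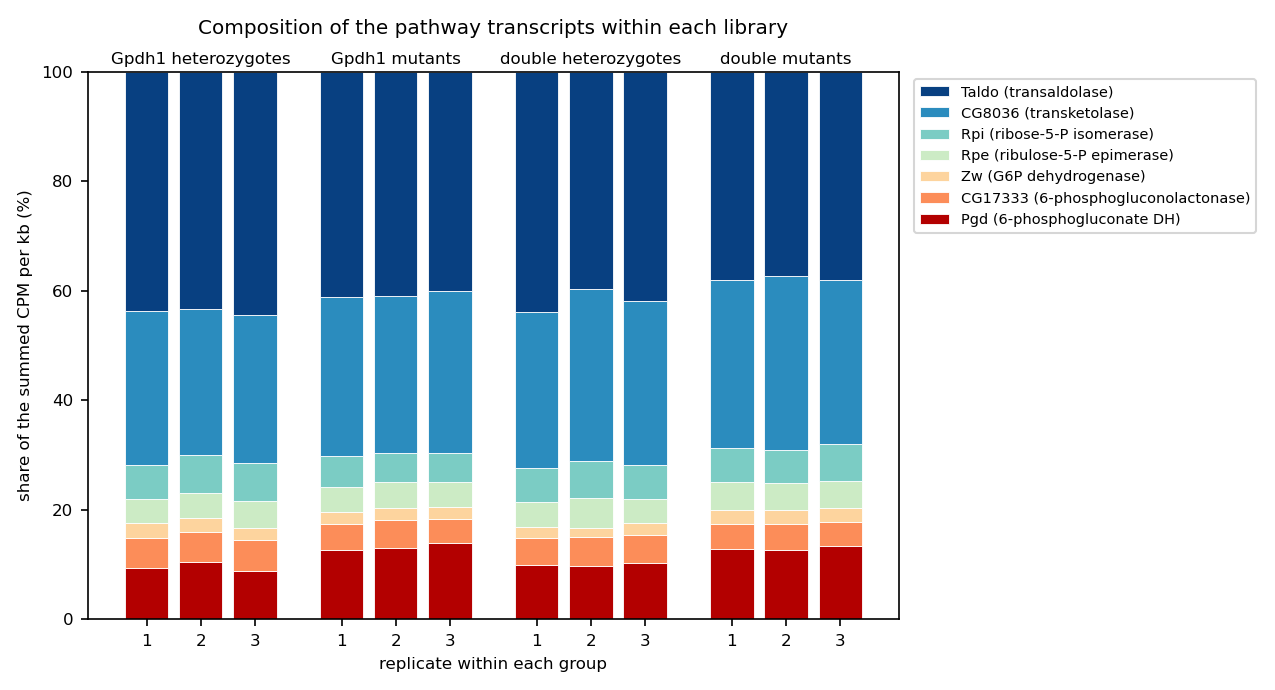
Share of each gene in the summed CPM per kb of the 7 genes, in percent, for each of the 12 libraries (stacked bars of the whole sum, grouped by genotype). The part held by *Pgd* is between 8.73% and 10.5% in the control libraries and between 12.6% and 14.0% in the mutant libraries.

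The make-up of the pathway's transcripts differed between mutants and controls, with a larger share of *Pgd* in the mutants. A share also rises when the other genes fall, and the level of *Pgd* itself passed the test in neither mutant. *Pgd* held 9.49% ± 0.888 (SD, n = 3) of the summed CPM per kb in *Gpdh1* heterozygotes and 13.2% ± 0.700 in *Gpdh1* mutants, and 9.93% ± 0.302 and 12.9% ± 0.363 in the other cross. The 3 oxidative genes together held 17.6% ± 0.876 and 20.1% ± 0.506 in the *Gpdh1* cross, and 17.0% ± 0.524 and 20.03% ± 0.184 in the double cross, with no overlap between mutant and control libraries. In the same order, *CG17333* held 5.52%, 4.72%, 5.18% and 4.53%, and *Zw* held 2.58%, 2.16%, 1.91% and 2.56%. With every gene weighted equally, the log2 ratio of oxidative to non-oxidative genes overlapped in the *Gpdh1* cross (controls −1.54 to −1.37, mutants −1.40 to −1.33). It did not overlap in the double cross (−1.75 to −1.46 and −1.40 to −1.36). *Taldo* held 43.8% ± 0.621 and 40.7% ± 0.633, then 41.7% ± 2.09 and 37.8% ± 0.399. These shares are descriptive and were not tested. The summed level itself was 1133 ± 133 CPM per kb in the controls and 929 ± 49.3 in the mutants of the *Gpdh1* cross, and 1220 ± 61.1 and 964 ± 37.3 in those of the double cross. Within the oxidative arm, the ratio of *Pgd* to *CG17333* per kilobase was 1.72 ± 0.199 and 2.82 ± 0.393 in the *Gpdh1* cross and 1.92 ± 0.141 and 2.86 ± 0.206 in the double cross. The ratio of *Zw* to *Pgd* was 0.273 ± 0.0266 in the controls and 0.164 ± 0.00572 in the mutants of the *Gpdh1* cross, and 0.191 ± 0.0282 and 0.198 ± 0.00621 in those of the double cross. That ratio thus separated mutants from controls in the *Gpdh1* cross and not in the other.

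Enzymes next to the pathway did not all move with it. Of 8 related enzymes found in the files, 4 were abundant enough to test: *CG3534* (a predicted xylulokinase), *Prps* (phosphoribosyl pyrophosphate synthetase, which takes ribose-5-phosphate into nucleotide synthesis), *Pgm1* and *Pgm2a* (phosphoglucomutases). *CG3534* fell by 0.55 on the log2 scale in *Gpdh1* mutants (adjusted p = 0.00195) and by 0.56 in double mutants (adjusted p = 0.000653). *Prps* rose by 0.27 (adjusted p = 0.00585) and 0.34 (adjusted p = 0.00166), so that it was higher where *Rpi* was lower. *Pgm2a* fell in double mutants (−0.56, adjusted p = 0.000137) and was at −0.12 in *Gpdh1* mutants (adjusted p = 0.322). *Pgm1* passed in neither (−0.10 and 0.10). *CG7140*, *CG3544* and *Pgm2b* were counted but too low to test, *CG5103* was at 0 CPM in every library, and *Rbks* matched no identifier.

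Of 13 glycolytic and gluconeogenic genes tested, 7 were lower and 1 higher in *Gpdh1* mutants, and 7 were lower and 0 higher in double mutants. Over all genes tested, 20.2% were lower and 17.9% higher in *Gpdh1* mutants, and 25.9% and 25.3% in double mutants. In double mutants, edgeR without double heterozygote library 2 and DESeq2 each gave 2 higher, and the higher gene of the *Gpdh1* mutants was lost without heterozygote library 3 or any 1 mutant library. *Hex-C*, a hexokinase that makes the glucose-6-phosphate on which the pathway draws, had log2 fold changes of −1.82 (adjusted p = 0.000853) and −2.199 (adjusted p = 9.2e-06). *Pglym78*, a phosphoglycerate mutase, was lower by less (−0.49 and −0.52, adjusted p = 0.00149 and 0.00119), as were *Pgk*, the phosphoglycerate kinase (−0.45 and −0.43, adjusted p = 0.00459 and 0.00274), and *fbp*, the fructose-1,6-bisphosphatase (−0.45 and −0.61, adjusted p = 0.00465 and 0.000204). *Hex-A*, the other hexokinase of the list, passed in neither mutant (0.07, adjusted p = 0.477, and 0.05, adjusted p = 0.671). It averaged 42.8 and 44.8 CPM per kb in controls and mutants of the *Gpdh1* cross, and 39.5 and 41.1 in the double cross. The means of *Hex-C* were 59.7, 16.8, 41.2 and 9.01 CPM per kb in the same order.

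**Figure D4:**
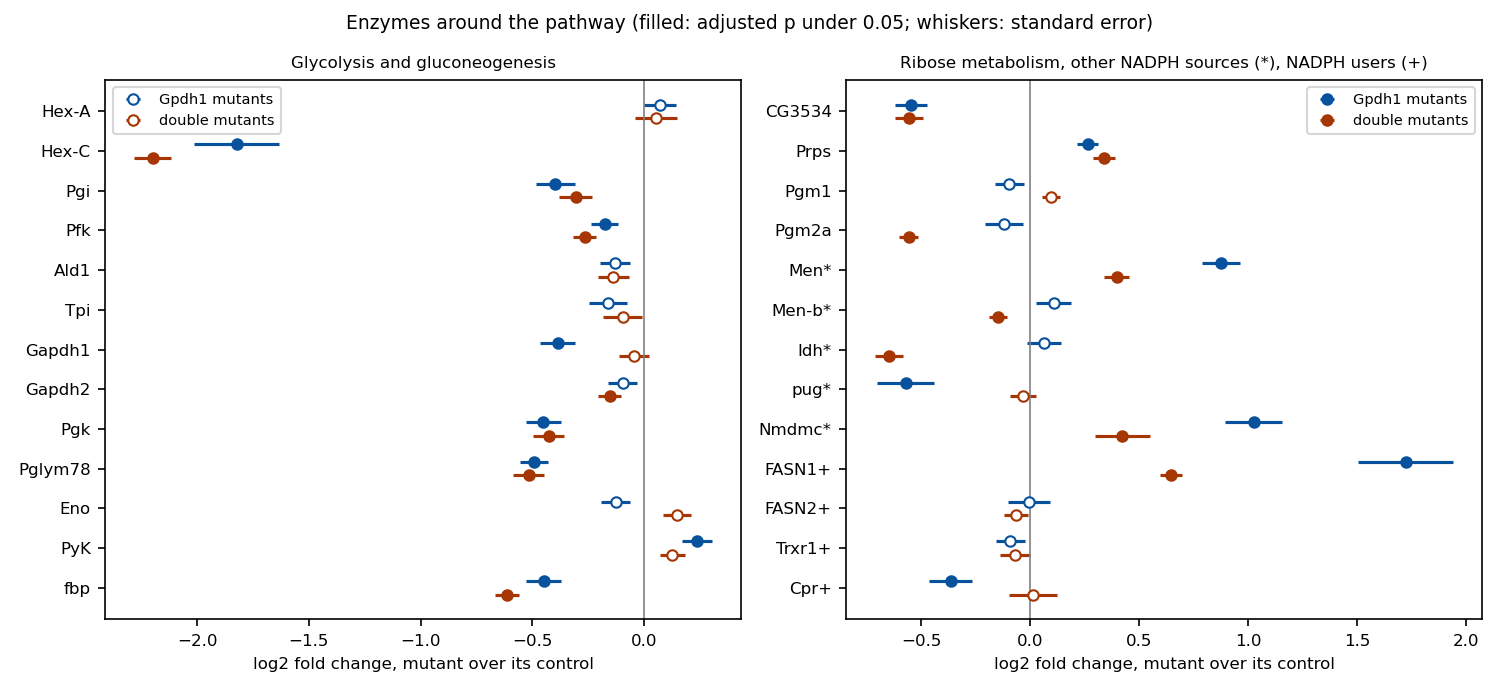
Log2 fold change of glycolytic genes (left) and of related genes (right) in *Gpdh1* mutants (blue) and double mutants (orange). The right panel holds ribose metabolism, genes listed as other possible NADPH sources (marked *) and NADPH users (marked +). Whiskers are standard errors and filled points have an adjusted p under 0.05. *Hex-C* is lowest in both, and *FASN1* and *Men* are to the right of 0 in both.

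Of 5 genes listed as other possible NADPH sources, 2 were higher and 1 lower in *Gpdh1* mutants, and 2 were higher and 2 lower in double mutants. Over all genes tested, 17.9% were higher and 20.2% lower in *Gpdh1* mutants, and 25.3% and 25.9% in double mutants. *Men*, the cytosolic malic enzyme, rose by 0.88 in *Gpdh1* mutants (SE 0.0868, adjusted p = 0.000707) and by 0.40 in double mutants (SE 0.0572, adjusted p = 0.00169). *Nmdmc*, a methylenetetrahydrofolate dehydrogenase, rose in *Gpdh1* mutants (1.03, adjusted p = 0.00151) and in double mutants (0.42, adjusted p = 0.0292). It counts among the 2 higher genes of both mutants, and whether its enzyme makes NADPH or NADH was not examined. *pug*, another enzyme of folate metabolism, fell in *Gpdh1* mutants (−0.57, adjusted p = 0.0136) and was at −0.03 in double mutants (adjusted p = 0.686). *Idh*, the NADP-dependent isocitrate dehydrogenase, fell in double mutants (−0.65, adjusted p = 0.000351) and was at 0.06 in *Gpdh1* mutants (adjusted p = 0.554). *Men-b* fell in double mutants as well (−0.15, adjusted p = 0.0273) and was at 0.11 in *Gpdh1* mutants (adjusted p = 0.322). With 1 library left out, the count of 2 higher genes in double mutants became 1 in 5 of 6 fits and the count of 2 lower genes became 1 in 6 of 6. Of 4 NADPH-using genes tested, 1 was higher and 1 lower in *Gpdh1* mutants, and 1 was higher in double mutants. *FASN1*, a fatty acid synthase, rose by 1.72 in *Gpdh1* mutants (adjusted p = 0.00144) and 0.65 in double mutants (adjusted p = 0.000129). Its controls differed, at 841 CPM in *Gpdh1* heterozygotes and 1583 CPM in double heterozygotes (0.91, adjusted p = 0.00439). The *Gpdh1* mutants and double mutants were at 2767 and 2488 CPM (−0.16, adjusted p = 0.483). *Cpr*, the cytochrome P450 reductase, fell in *Gpdh1* mutants (−0.36, adjusted p = 0.0237), a call that was lost without any 1 of the mutant libraries, and was at 0.01 in double mutants (adjusted p = 0.931).

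Of 9 regulators of sugar, lipid and redox genes, 3 were higher and 1 lower in *Gpdh1* mutants and 7 were higher and 0 lower in double mutants. *SREBP*, a transcription factor of lipogenic genes, rose by 0.69 (adjusted p = 0.00116) and 0.40 (adjusted p = 0.000475). *Mondo*, the sugar-responsive partner of the factor Mlx, rose by 0.42 (adjusted p = 0.00133) and 0.26 (adjusted p = 0.00743). *sug*, a sugar-induced transcription factor, rose in double mutants (0.97, adjusted p = 0.00237) and was at 0.73 in *Gpdh1* mutants without passing (adjusted p = 0.103). *cnc*, the factor of the antioxidant response, rose in both (0.20, adjusted p = 0.0269, and 0.29, adjusted p = 0.00818). The 1 lower call was not made by DESeq2 and was lost in 5 of the 6 fits with 1 library left out. Of 12 genes of nucleotide synthesis, 1 was higher and 5 lower in *Gpdh1* mutants, and 5 were higher and 4 lower in double mutants. Beside the counts of both lists stand the shares over all genes tested. These were 17.9% higher and 20.2% lower in *Gpdh1* mutants, and 25.3% higher and 25.9% lower in double mutants. *Prat2*, which uses the product of *Prps*, rose by 2.01 in double mutants (adjusted p = 1.83e-05) and was at 0.45 in *Gpdh1* mutants (adjusted p = 0.128). Its controls differed, at 36.0 CPM in *Gpdh1* heterozygotes and 13.8 CPM in double heterozygotes (−1.39, adjusted p = 0.000831). The *Gpdh1* mutants and double mutants were at 49.2 and 56.0 CPM (0.18, adjusted p = 0.459). *Paics*, further down purine synthesis, rose by 0.91 in double mutants (adjusted p = 0.000130) and was at 0.06 in *Gpdh1* mutants (adjusted p = 0.720). *AdSL* (−0.40 and −0.24, adjusted p = 0.00272 and 0.00759) and *CTPsyn* (−0.33 and −0.23, adjusted p = 0.00520 and 0.0192) fell in both mutants. With 1 library left out, the higher count in double mutants ran from 3 to 7 and the lower count from 1 to 2, and in *Gpdh1* mutants these ran from 0 to 1 and from 3 to 5.

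Across the 12 libraries, the genes differed in which other genes they resembled. These correlations of log2 CPM describe libraries that share genotype, cross and depth, and carry no test. Among the 7, *CG17333* and *Taldo* were most alike (Pearson r 0.945), followed by *Rpe* and *Rpi* (0.927) and by *CG17333* and *Rpi* (0.888). *Zw* was less like the others, at 0.188 with *Pgd* to 0.555 with *Taldo*, and *Pgd* ran from −0.167 with *CG17333* to 0.310 with *CG8036*. Over the 8354 genes with a mean of at least 5 CPM, the nearest to *Zw* were *alpha-Est2* (0.954), *HDAC6* (0.922) and *Nipsnap* (0.908), and those nearest to *Pgd* were *CG8478* (0.810), *ACC* (0.773), the acetyl-CoA carboxylase, and *CG18135* (0.746). The nearest to *CG17333* were *ND-49* (0.973), *CG14109* (0.972) and *ATPsynD* (0.972), of which *ND-49* and *ATPsynD* encode subunits of respiratory complex I and of ATP synthase. *Taldo* was nearest to *CG31267* (0.984), *CG1907* (0.974) and *QIL1* (0.973), and *Rpi* to *Alg3* (0.978), *levy* (0.972) and *CG11699* (0.971). For *Rpe* they were *CG5504* (0.967), *eIF3f1* (0.962) and *Nacalpha* (0.957), and for *CG8036* they were *SdhB* (0.931), *Hibch* (0.907) and *RpL26* (0.906). *Pgd* had the lowest top value of the 7.

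Tissue markers also differed between mutants and controls, in both directions. Their counts stand against 17.9% higher and 20.2% lower over all genes in *Gpdh1* mutants, and 25.3% and 25.9% in double mutants. Of 9 muscle markers, 8 were lower in *Gpdh1* mutants and 8 in double mutants, and their summed level ranged from 63086 to 65570 CPM in the controls and 45615 to 51556 in the mutants of the *Gpdh1* cross, and from 56994 to 62879 and 45638 to 46880 in those of the double cross. The count in *Gpdh1* mutants was 5 without mutant library 1 and 4 without mutant library 2. Of 7 fat body markers tested, 4 were lower and 2 higher in *Gpdh1* mutants, and of 6 tested, 4 were lower and 1 higher in double mutants. Their sums were 10019 to 16078, 4151 to 5186, 6645 to 11508 and 4350 to 4613 CPM in the same order. *Fbp2* and *Lsp2* were near 0 in all 4 groups, *Fbp1* in both controls and *Lsp1alpha* in both mutants. Midgut markers were higher in 5 of 8 and 7 of 8 and lower in 0, with sums of 964 to 1891, 1319 to 1652, 1742 to 1814 and 4060 to 4339 CPM. The sums of the *Gpdh1* mutants thus lay within the range of their controls. With 1 library left out, 0 to 2 midgut markers were lower in *Gpdh1* mutants. Hemocyte markers fell in 3 of 6 and 6 of 6, with sums of 179 to 223, 185 to 193, 176 to 220 and 105 to 108 CPM. Neuron markers were higher in 3 of 6 and 4 of 6, with none lower and sums of 178 to 186, 207 to 230, 174 to 189 and 217 to 248 CPM. Of 6 imaginal disc markers, 1 was higher and 2 lower in *Gpdh1* mutants, and 1 higher and 3 lower in double mutants, with sums of 34.5 to 37.0, 30.0 to 32.8, 33.8 to 34.9 and 33.9 to 35.5 CPM. The count of 2 became 1 without *Gpdh1* heterozygote library 1, *Gpdh1* mutant library 1 or *Gpdh1* mutant library 2. Both male dosage compensation RNAs were measured, since *Zw*, *Pgd* and *CG17333* are X-linked. *lncRNA:roX1* rose by 0.54 in *Gpdh1* mutants (adjusted p = 0.00522) and 0.38 in double mutants (adjusted p = 0.00972), while *lncRNA:roX2* rose by 0.54 in *Gpdh1* mutants (adjusted p = 0.00963) and was at 0.14 in double mutants (adjusted p = 0.296). The median log2 fold change of X-linked genes was 0.00 in *Gpdh1* mutants and −0.03 in double mutants, against 0.01 and −0.03 for the other genes. The part of these markers in the changes of the pathway genes was not tested.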

How the data were processed

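Gene counts were deposited as 1 table per library: whole-number read counts per gene, not normalised by the authors, with HTSeq's summary lines kept out of all totals (reads without a gene made up 0.736% to 1.04%, ambiguous reads 1.97% to 2.17%, and reads placed in several positions 8.06% to 14.7%). The submitters' processing notes name bcl2fastq 2.20.0.422, cutadapt 1.12, HISAT2 2.1.0 and HTSeq 0.9.0, whereas the methods of the study describe another route (Salmon, tximport and DESeq2). The genome build and strand setting of the counting are not given in the sources used here. Reads placed in several positions or in overlapping genes are lost from such counts, which lowers genes with close copies.

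Counts were analysed in R 4.3.3 with edgeR 4.0.16: filterByExpr (minimum count 10), TMM scaling, glmQLFit and glmQLFTest, each mutant against its own control in 6 libraries, and in 1 fit of 12 libraries for the difference and for the control and mutant groups. Adjusted p values are Benjamini-Hochberg over all genes tested (10592, 10650 and 10880), with a threshold of 0.05 and no fold limit. All 7 pathway genes passed the filter on low counts in every comparison. Correlations used log2 CPM with a prior count of 2. The alternatives were RLE size factors, DESeq2 1.42.0, other filters, 1 fit of all libraries, a replicate block, a 2-fold limit, and each library left out. The steps were tested on simulated data. Groups came from the sample titles, and gene positions from the Ensembl BDGP6.54 annotation; of the 17185 identifiers, 17059 had a symbol, and *CG17333* was matched through a synonym. Named beside the 7 genes were all tested related enzymes, up to 3 genes with the smallest adjusted p of each other list and contrast, and the 3 most correlated genes. *Hex-A* was named in addition, as the other hexokinase beside *Hex-C*. Of the NADPH-using list, 2 genes are not reported here and were left out of its counts. The genes and lists were chosen with earlier results of these data known. The samples were separate biological samples according to the study, each a pool of larvae.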

Additional observations from a re-analysis of the deposited data

How the results depend on the processing

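With 1 library left out at a time, the number of lower pathway genes ran from 2 to 6 in *Gpdh1* mutants and from 4 to 5 in double mutants. The number of higher genes ran from 0 to 1 for the difference between the crosses, for the control groups and for the mutant groups, and the number of lower genes from 0 to 1 for the control groups. The shares of higher genes over all genes tested were 9.83% to 12.1%, 8.86% to 13.6% and 15.3% to 20.2%. For lower genes in the control groups the share was 8.57% to 12.7%. DESeq2 gave 1 higher gene for the difference. With a limit of 2-fold, 0 genes were lower in *Gpdh1* mutants, 0 in double mutants, and 0 higher between the mutant groups. Over all genes tested, only 4.44%, 3.57% and 4.23% passed that limit in the same order. With the double mutant libraries summed into 1, an alternative chosen after seeing the data, that group had no spread of its own. Only effect sizes are given for it. The log2 fold changes in double mutants were −0.38 for *Rpi*, −0.49 for *Taldo*, −0.31 for *CG8036* and −0.26 for *Rpe*. Between the mutant groups *Rpi* was at 0.25.

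Values that changed sign were small and passed no test. For *CG17333* between the control groups they were −0.00322 with RLE size factors, −0.00302 with DESeq2, −0.0168 with at least 10 counts in every library and −0.00976 with the summed libraries, and −0.0669 to 0.0726 with 1 library left out. For its difference between the crosses they were 0.00536 with at least 10 counts in every library and −0.0904 to 0.1001 with 1 library left out. Other ranges across 0 with 1 library left out were −0.0765 to 0.0889 (*CG17333*, mutant groups), −0.0210 to 0.107 (*Pgd*, double mutants), −0.0562 to 0.0669 (*Pgd*, mutant groups), −0.0199 to 0.107 (*Rpe*, difference), −0.0470 to 0.103 (*Taldo*, control groups) and −0.0541 to 0.268 (*Zw*, double mutants). The cause was not tested.

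Replicate numbers did not pair the libraries: correlations between deviations of same-numbered libraries were −0.27, −0.29 and −0.07 in the *Gpdh1* cross and 0.00, 0.02 and 0.04 in the double cross. With the number as a replicate block, 5 genes were lower in *Gpdh1* mutants and 4 in double mutants, where *Rpe* had an adjusted p of 0.0689. Over all genes tested, 16.2% and 22.2% were lower with that block. The 7 genes had 785 to 26468 counts per gene and library. With 3 libraries per group small differences between genotypes could be missed.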
